A study of Mus musculus with 3 samples.

Results

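The genes described here encode 10 matricellular and adhesive matrix proteins: periostin (*Postn*), the tenascins *Tnc* and *Tnn*, the thrombospondins *Thbs1*, *Thbs2* and *Thbs3*, *Sparc* and its relative *Sparcl1*, the CCN family member *Ccn2* and fibronectin (*Fn1*). They were a list given by name, matched by Ensembl ID, and are 10 of the 32285 genes in the count files. Skin wounds of wild-type C57BL/6J mice, with no transgene and no drug treatment, were profiled by droplet single-cell RNA sequencing (10x Chromium 3′ v3.1) on Days 3, 7 and 14 after injury. The design text calls the injury incisional, whereas the methods of the study describe full-thickness punch wounds of the back skin of adult male mice. Each day is 1 library, so there is no replicate check of any difference between days and no p-value is given. Tissue was digested with enzymes and cleared of red cells and debris, so only cells that survived these steps were counted.

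Matricellular proteins are secreted into the extracellular matrix but act mainly as signals and not as load-bearing fibres: they bind integrins, growth factors, proteases and collagen and tune how cells adhere, migrate and contract. Most are scarce in resting adult skin and are deposited in the provisional matrix and granulation tissue after wounding. Fibroblasts are regarded as their principal dermal source, and platelets, macrophages, mural cells and endothelial cells are known further sources of individual members.

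The libraries held 5158, 22924 and 16611 barcodes on Days 3, 7 and 14, with 38133650, 120940799 and 112713257 UMIs (unique molecular identifiers, each counting 1 captured RNA molecule). After filtering and doublet removal 4360, 19590 and 13510 cells were left. Fibroblast-like cells, called from *Dcn*, *Lum*, *Col1a1*, *Col1a2*, *Col3a1*, *Pdgfra*, *Col6a1* and *Mfap5* (8 of 8 detected on each day), numbered 398, 5732 and 6400, with median UMI counts of 44800.5, 10458 and 10392.5. The Day 3 fibroblast-like cells were therefore few and much deeper than the others, and 365 of the 398 fell in 1 cluster led by *Cxcl5* and *Saa3*. The other classes were macrophage-like (2712, 9644 and 3264 cells), neutrophil-like (867, 1627 and 21), dendritic-like (232, 1053 and 480), lymphocyte-like (10, 359 and 308), pericyte-like (10, 184 and 426), endothelial-like (11, 228 and 230), epithelial-like (1, 46 and 690), mast cell-like (2, 33 and 19) and a *Bmp4*-positive mesenchymal-like class (4, 62 and 713), which was marked by *Bmp4*, *Wif1* and *Lef1*. Clusters with 113, 622 and 959 cells were left unnamed, among them 103 cells of Day 14 led by *Igfbp2*, *Prss35* and *Crabp1*, which are described where they bear on a gene. Pairs of libraries shared 19 to 111 barcodes, which all come from 1 list used for every library. *Gm42418*, which overlaps ribosomal RNA, took 3.6%, 11.7% and 6.42% of the UMIs.

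Levels are given as CPM, the usual scaling of the UMIs of a gene by all UMIs of the class, with the exact 95% Poisson interval in parentheses, which covers counting error only. Classes with fewer than 50 cells on a day are left out of rankings. A difference between days is the log2 ratio of CPM with an exact 95% interval, and it is called higher or lower when it was at least 2-fold.

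On the mouse GRCm38 build the genes lie on 8 chromosomes, and none overlaps another annotated gene on its strand. *Postn* is at chr3:54361109-54391037 (plus strand) and *Thbs3* at chr3:89215180-89226837 (plus). *Tnn* is at chr1:160085029-160153580 (minus) and *Fn1* at chr1:71585520-71653200 (minus). *Tnc* lies at chr4:63959785-64047015 (minus), *Thbs1* at chr2:118111876-118127133 (plus) and *Thbs2* at chr17:14665500-14694235 (minus). *Sparc* lies at chr11:55394500-55423183 (minus), *Sparcl1* at chr5:104079111-104113733 (minus) and *Ccn2* at chr10:24595442-24598683 (plus).

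The 250 bases upstream of an annotated start of *Tnc*, *Tnn* and *Postn* are shown because, of the 6 genes with a window, these had the largest ratios between days in fibroblast-like cells. They are RefSeq sequences on GRCm38.p6, printed 5′ to 3′ on the strand of the gene, and capitals mark motif matches on either strand. The *Tnc* window is chr4:64047016-64047265 (minus strand), the *Tnn* window chr1:160153576-160153825 (minus) and the *Postn* window chr3:54360857-54361106 (plus).
Tnc: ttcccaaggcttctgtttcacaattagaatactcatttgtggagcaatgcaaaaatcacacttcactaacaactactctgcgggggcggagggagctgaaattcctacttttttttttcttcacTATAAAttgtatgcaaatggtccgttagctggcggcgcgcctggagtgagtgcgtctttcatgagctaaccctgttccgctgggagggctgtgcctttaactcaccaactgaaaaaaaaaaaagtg
Tnn: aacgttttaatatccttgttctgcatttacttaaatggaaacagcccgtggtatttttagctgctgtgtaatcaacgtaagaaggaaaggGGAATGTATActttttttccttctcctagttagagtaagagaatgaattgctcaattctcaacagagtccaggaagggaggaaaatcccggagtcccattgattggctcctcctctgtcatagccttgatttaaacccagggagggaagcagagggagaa
Postn: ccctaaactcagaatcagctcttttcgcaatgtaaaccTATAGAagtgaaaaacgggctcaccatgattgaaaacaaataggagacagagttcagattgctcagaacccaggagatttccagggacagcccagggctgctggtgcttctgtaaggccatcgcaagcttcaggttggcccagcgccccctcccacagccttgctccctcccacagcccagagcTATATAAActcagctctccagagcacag
The motifs searched on both strands were a TATA-like TATANA (in 22.6% of 32851 windows of this length), the M-CAT element GGAATG bound by TEAD factors (12.6%), the AP-1 element TGANTCA (6.75%) and the CArG box of serum response factor (1.47%). *Tnc* had 1 match in the window shown, TATAAA at 126 to 121 bases upstream. A second annotated start of *Tnc* has an overlapping window at chr4:64046937-64047186, with TATAAA at 205 to 200 and TATATA at 29 to 24 bases upstream of that start. *Tnn* had GGAATG at 160 to 155 bases upstream, overlapping a reverse-strand TATA-like match at 156 to 151. *Postn* had TATAGA at 212 to 207 bases and overlapping TATATA and TATAAA matches between 28 and 21 bases upstream, and the window of its second start, chr3:54359017-54359266, had 0 matches. No AP-1 or CArG letters occurred in these 3 windows. Windows were matched for 6 of the 10 genes. A match describes the letters of the window and is not evidence of binding.

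Fibroblast-like cells carried most transcripts of 6 of the genes on every day. They held 94% to 98.3% of all *Postn*, *Sparc* and *Thbs3* UMIs of the kept cells, 84.8% to 98.6% of *Thbs2*, 86.2% to 96.7% of *Tnc* and 80.4% to 94.6% of *Ccn2*. They had the highest level of any ranked class for 7, 6 and 7 of the 10 genes on Days 3, 7 and 14. *Thbs1*, *Sparcl1*, *Tnn* and *Fn1* had large shares in other cells on at least 1 day. These shares depend on how many cells of each class survived dissociation.

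**Figure D1:**
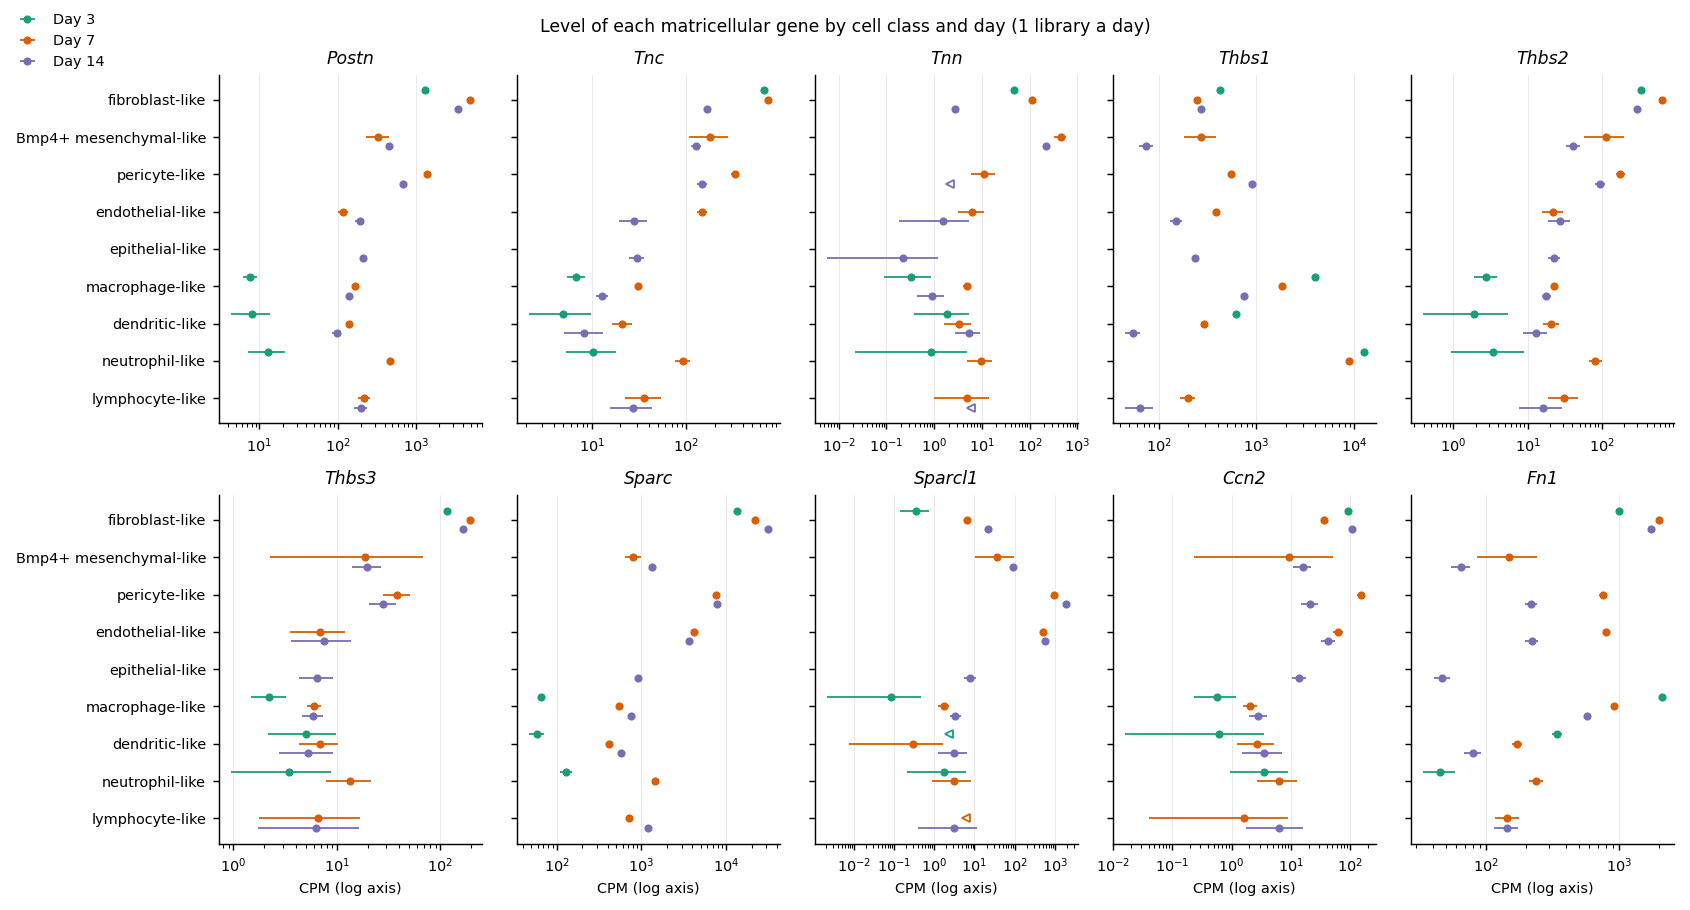
Level of each gene (CPM, log axis) in the cell classes on Days 3, 7 and 14, with exact 95% Poisson intervals, 1 library a day; open triangles mark upper limits where no UMI was counted. *Postn* and *Sparc* sit highest in fibroblast-like cells, *Thbs1* in neutrophil-like and macrophage-like cells on Days 3 and 7 and in pericyte-like cells on Day 14, and *Sparcl1* in pericyte-like and endothelial-like cells.

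**Figure D2:**
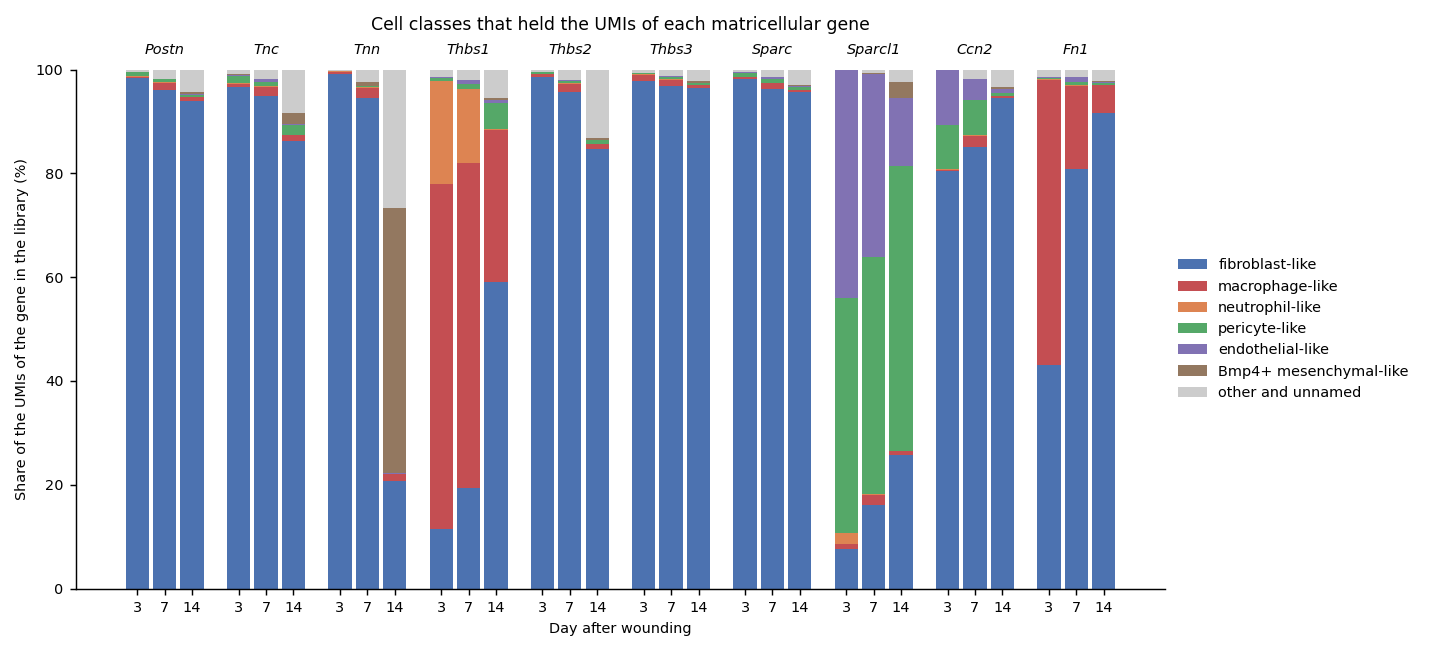
Share of the UMIs of each gene (percent of the UMIs in kept cells) by cell class and day; grey marks other classes and unnamed clusters. Fibroblast-like cells fill nearly the whole bar for *Postn*, *Thbs3* and *Sparc*, whereas macrophage-like cells take 66.5% of *Thbs1* and 55% of *Fn1* on Day 3.

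Transcripts typical of fibroblasts were found at low levels in immune cells, so the levels of the genes there are given beside that background. The median of *Dcn*, *Lum*, *Pdgfra*, *Mfap5* and *Dpt* in macrophage-like cells was 0.66%, 3.52% and 3.58% of their fibroblast-like CPM on Days 3, 7 and 14. *Postn* in macrophage-like cells was 0.58%, 3.32% and 3.98% of its fibroblast-like level, and *Sparc* 0.49%, 2.48% and 2.4%. Both therefore lay close to the background median or below it. In neutrophil-like cells the background median was 1.3% on Day 3 and 9.82% on Day 7, and *Postn* was at 0.98% and 9.47%. *Fn1* in macrophage-like cells was at 209%, 45.8% and 33.1% of its fibroblast-like level, far above the background of the same cells.

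Lymphocyte-like cells gave a further reference for shares of cells, except for *Thbs1*, which in these cells stood far above the background genes. With every Day 7 cell thinned to 500 UMIs (unthinned medians 10458 in fibroblast-like and 1398 in lymphocyte-like cells), *Postn* was detected in 78.7% of fibroblast-like (77.6 to 79.7) and 14.5% of lymphocyte-like cells (11 to 18.6). The same shares were 99.8% and 33.7% for *Sparc*, 57.2% and 8.08% for *Fn1*, 24% and 2.51% for *Thbs2* and 18.4% and 1.39% for *Tnc*. For *Thbs3* they were 9.77% and 0.28%, and for *Thbs1* 10.1% and 3.62%. Each fibroblast-like share lay above the lymphocyte-like one, by the smallest factor for *Thbs1* and *Sparc*. *Tnn*, *Ccn2* and *Sparcl1* were in 4.24%, 1.8% and 0.37% of fibroblast-like cells and in 0 of 359 lymphocyte-like cells, whose upper limits of 1.02% reach past the *Sparcl1* share. Without thinning, the *Postn* shares were 99.5% and 27.3%.

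In fibroblast-like cells, 2 of the 9 members that passed the filter on low values were at least 2-fold higher on Day 7 than on Day 3, *Postn* and *Tnn*, and 1 was lower, *Ccn2*. Of all 7754 genes compared, 4.44% were at least 2-fold higher and 8.96% lower. The median log2 ratio of the 9 was 0.74, and that of all genes was -0.21. *Sparcl1* was below the filter, with 7 UMIs on Day 3. From Day 7 to Day 14 all 10 passed, of which *Ccn2* and *Sparcl1* were higher and *Tnc*, *Tnn* and *Thbs2* lower, where 2.25% of 7291 genes were higher and 3.69% lower. Their median was -0.21 against -0.15 for all genes, with members far from it in both directions. *Sparcl1* was below 10 CPM on Day 7 (6.37 CPM) and *Tnn* on Day 14 (2.69 CPM). Each passed the filter (a mean of at least 10 CPM) only through its other day, which fixed its direction. The balance over all genes depended on the scaling: with median-of-ratios size factors 6.78% were higher and 5.67% lower from Day 3 to Day 7, and 3.36% higher and 2.63% lower from Day 7 to Day 14, and without the 50 most abundant genes in the totals 7.12% were higher and 5.56% lower from Day 3 to Day 7. The ratio of *Thbs2* fell short of 2-fold, at -0.96, when the unnamed clusters with fibroblast markers were counted as fibroblast-like, and the other calls were kept.

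**Figure D3:**
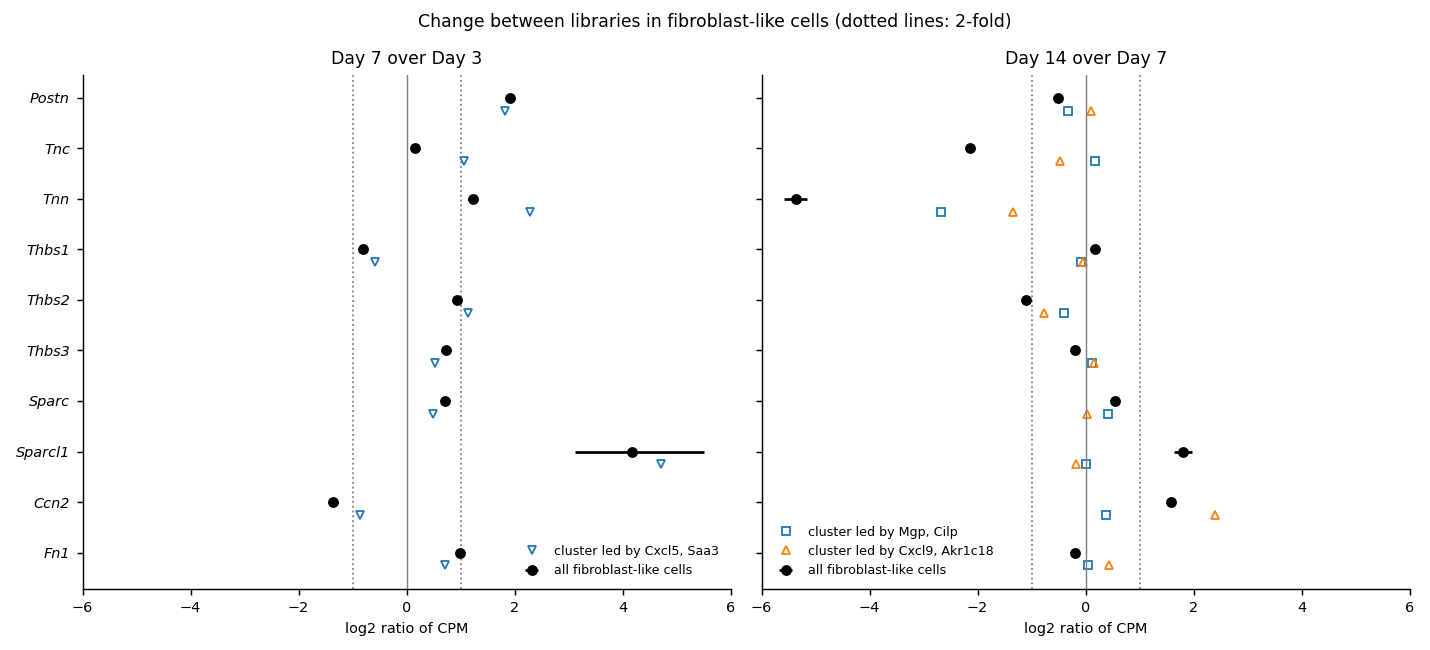
Log2 ratio of CPM for Day 7 over Day 3 (left) and Day 14 over Day 7 (right) in all fibroblast-like cells (filled circles, with exact 95% intervals from counting error) and within clusters of at least 100 cells on both days (open symbols); dotted lines mark 2-fold. *Tnn* moves from 1.23 to -5.36 and *Ccn2* from -1.37 to 1.59, while *Tnc* moves by less than 2-fold from Day 7 to Day 14 within either cluster shown. The unnamed cluster of low UMI counts with fibroblast markers, where *Tnc* was at -1.74, is not shown.

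Periostin, a fasciclin-domain protein that binds integrins and helps cross-link collagen, had its highest class-wide level on Day 7. *Postn* in fibroblast-like cells measured 1323 (1308 to 1340), 4969 (4952 to 4986) and 3481 (3467 to 3495) CPM on Days 3, 7 and 14. The log2 ratio was 1.91 (1.89 to 1.93) for Day 7 over Day 3 and -0.51 for Day 14 over Day 7, so the Day 14 level stayed well above the Day 3 level. The second ratio ranged from -0.57 to -0.07 over the alternative settings. The value of -0.07 came from Leiden resolution 0.5, which left many Day 7 cells unnamed. Within clusters the second ratio was -0.33 (-0.36 to -0.29) in the one led by *Mgp* and *Cilp* and 0.10 (0.07 to 0.12) in the one led by *Cxcl9* and *Akr1c18*. Within the *Cxcl5* and *Saa3* cluster, present on both days, the first ratio was 1.82 (1.80 to 1.85). Thinned to 2000 UMIs, 83%, 97.1% and 87.6% of the fibroblast-like cells had a *Postn* UMI. Nearly all of these cells thus carried it on Day 7.

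Among other classes, pericyte-like cells had 1389 CPM of *Postn* (1322 to 1457) on Day 7 and 692 (653 to 733) on Day 14. Across 12 Day 7 subclusters of the fibroblast-like cells, *Postn* spanned 2187 to 9763 CPM, and the highest was led by *Dlk1* and *Ptn* (681 cells, 24% of the UMIs). On Day 14 it spanned 134 to 5515 CPM over 12 subclusters. The lowest was led by *Ppp1r14a*, *Gal* and *Wfdc12* (521 cells), and that subcluster had the highest *Sparc* level.

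The tenascins, large multimeric proteins that weaken cell adhesion to fibronectin, were lower in fibroblast-like cells on Day 14 than on Day 7. *Tnc*, encoding tenascin-C, measured 661 CPM (650 to 672), 736 (729 to 743) and 167 (164 to 170) on Days 3, 7 and 14. Its log2 ratio was 0.16 for Day 7 over Day 3 (-1.15 at Leiden resolution 0.5 and -0.51 with each library clustered alone, so its direction is not settled) and -2.14 (-2.17 to -2.11) for Day 14 over Day 7 (-0.88 at resolution 0.5). Resolution 0.5 left many Day 7 cells unnamed. With the unnamed fibroblast-marker clusters counted in at that resolution, the Day 7 over Day 3 ratio stayed within 2-fold. The Day 14 over Day 7 ratio was then past 2-fold again. The class-wide 0.16 differed from the value within the *Cxcl5* and *Saa3* cluster, where *Tnc* was 665 CPM on Day 3 and 1391 on Day 7, a log2 ratio of 1.06 (1.03 to 1.10). In the fibroblast-like clusters with at least 100 cells on Days 7 and 14, the log2 ratio was 0.16 (-0.05 to 0.39) in the one led by *Mgp* and *Cilp* and -0.47 (-0.84 to -0.10) in the one led by *Cxcl9* and *Akr1c18*. These had 147 and 16.2 CPM of *Tnc* on Day 7. In the unnamed cluster of low UMI counts, which carried 8 fibroblast markers (491 and 670 cells), *Tnc* went from 343 to 103 CPM. The log2 ratio there was -1.74 (-2.03 to -1.46). The class-wide ratio was more negative than each of these.

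Most *Tnc* UMIs of Day 7 lay in 1 cluster that was nearly empty on Day 14. This cluster was led by *Tnn*, *Tnc*, *Col12a1*, *Lrrc15* and *Acta2*, although neither tenascin was used to form clusters. It had 2063 of the 5732 fibroblast-like cells on Day 7 and 55 of 6400 on Day 14. It held 34866 of the 46317 *Tnc* UMIs and 5269 of the 6977 *Tnn* UMIs of Day 7. Within it *Tnc* was at 1457 CPM (1442 to 1473) on Day 7 and 1053 (972 to 1138) on Day 14, and *Tnn* at 220 (214 to 226) and 61.6 CPM (43.4 to 85). The Day 14 values therefore stayed above the class-wide level of that day for both genes.

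*Tnn*, encoding tenascin-N (also called tenascin-W), had the largest ratio of any member from Day 7 to Day 14. It measured 47.4 (44.4 to 50.5), 111 (108 to 114) and 2.69 (2.32 to 3.11) CPM on Days 3, 7 and 14. The log2 ratios were 1.23 (1.13 to 1.33) and -5.36 (-5.58 to -5.15), the most negative of the members in these cells. The Day 14 value rests on 185 UMIs and depends on 103 cells: with the unnamed clusters that hold fibroblast markers counted in, it was 5.77 CPM from 410 UMIs and the log2 ratio -4.27. The first ratio depends on which clusters are named: with coarser clustering (Leiden resolution 0.5), which left 2613 Day 7 cells unnamed, it was -0.12, with the fibroblast-marker clusters among them counted in it was 1.24, and with each library clustered alone it was 0.43. Within the *Cxcl5* and *Saa3* cluster it was 2.28 (2.16 to 2.40). In the *Mgp* and *Cilp* and the *Cxcl9* and *Akr1c18* clusters the Day 14 over Day 7 ratio was -2.67 (-3.63 to -1.58) and -1.35, although the last interval (-2.72 to 0.05) reached 0. Thinned to 2000 UMIs, 5.32%, 11.2% and 0.44% of the cells had a *Tnn* UMI, and 39.7%, 35.8% and 9.47% had a *Tnc* UMI.

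*Tnc* and *Tnn* were often found in the same cells. On Day 7 the 10% of thinned fibroblast-like cells with the most UMIs of a gene held 63.2% of the *Tnc* UMIs and 93.5% of the *Tnn* UMIs, against 29.7% for *Postn* and 18.5% for *Sparc*. *Thbs1* was at 62.9% and the scarce *Ccn2* and *Sparcl1* at 100%, so a high share was not particular to the tenascins. *Tnc* was detected in 80.8% (77.5 to 83.8) of the 641 cells with a *Tnn* UMI and in 30.1% (28.8 to 31.4) of the 5064 without one. On Day 14 these shares were 35.7% (18.6 to 55.9) of 28 cells and 9.35% (8.65 to 10.1) of 6340. Cells with *Tnn* thus had *Tnc* more often on both days, whereas on Day 3 the intervals overlapped (52.4%, 29.8 to 74.3, of 21 cells and 39%, 34.1 to 44.2, of 374). *Thbs3* went the other way on Day 7, with 19.2% (16.2 to 22.5) of the cells with *Tnn* and 31.7% (30.4 to 33) of those without.

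By Day 7 subcluster, *Tnc* was lowest, at 18 CPM, in cells led by *Edn1*, *Akr1c18*, *Dmkn*, the keratinocyte gene *Krtdap* and *Pla1a* (733 cells). It was highest, at 1993 CPM, in cells led by *Col7a1*, *Mmp13*, *Acta2* and *Spp1* (586 cells, 29% of the *Tnc* UMIs). *Tnn* was lowest and highest in the same subclusters, at 2.51 and 409 CPM, and the latter held 39.6% of its UMIs. On Day 14 *Tnc* was at 1226 CPM in a subcluster led by *Inhba*, *Col18a1* and *Ptn*, which had 399 of the 6400 cells and 51.3% of the UMIs. *Tnn* on Day 14 reached 16.1 CPM (8.57 to 27.5) in 79 cells led by *Krtdap*, a keratinocyte gene, and *Cd74*, a gene of antigen-presenting cells, and 15.4 CPM (11.8 to 19.8) in 577 cells led by *Coch* and *Enpp2*, which do not differ beyond their intervals. The 103 unnamed Day 14 cells led by *Igfbp2*, *Prss35* and *Crabp1* carried 8 of 8 fibroblast markers and 4457 CPM of *Dcn* but were left unnamed because their 10 leading genes held *Crabp1*, a marker of the *Bmp4*-positive class, and no fibroblast marker. They had 224 CPM of *Tnn* (196 to 256) and 438 CPM of *Tnc* (398 to 481). Their 222 *Tnn* UMIs exceeded the 185 of all fibroblast-like cells, so small groups of cells held a large part of both transcripts on Day 14.

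**Figure D4:**
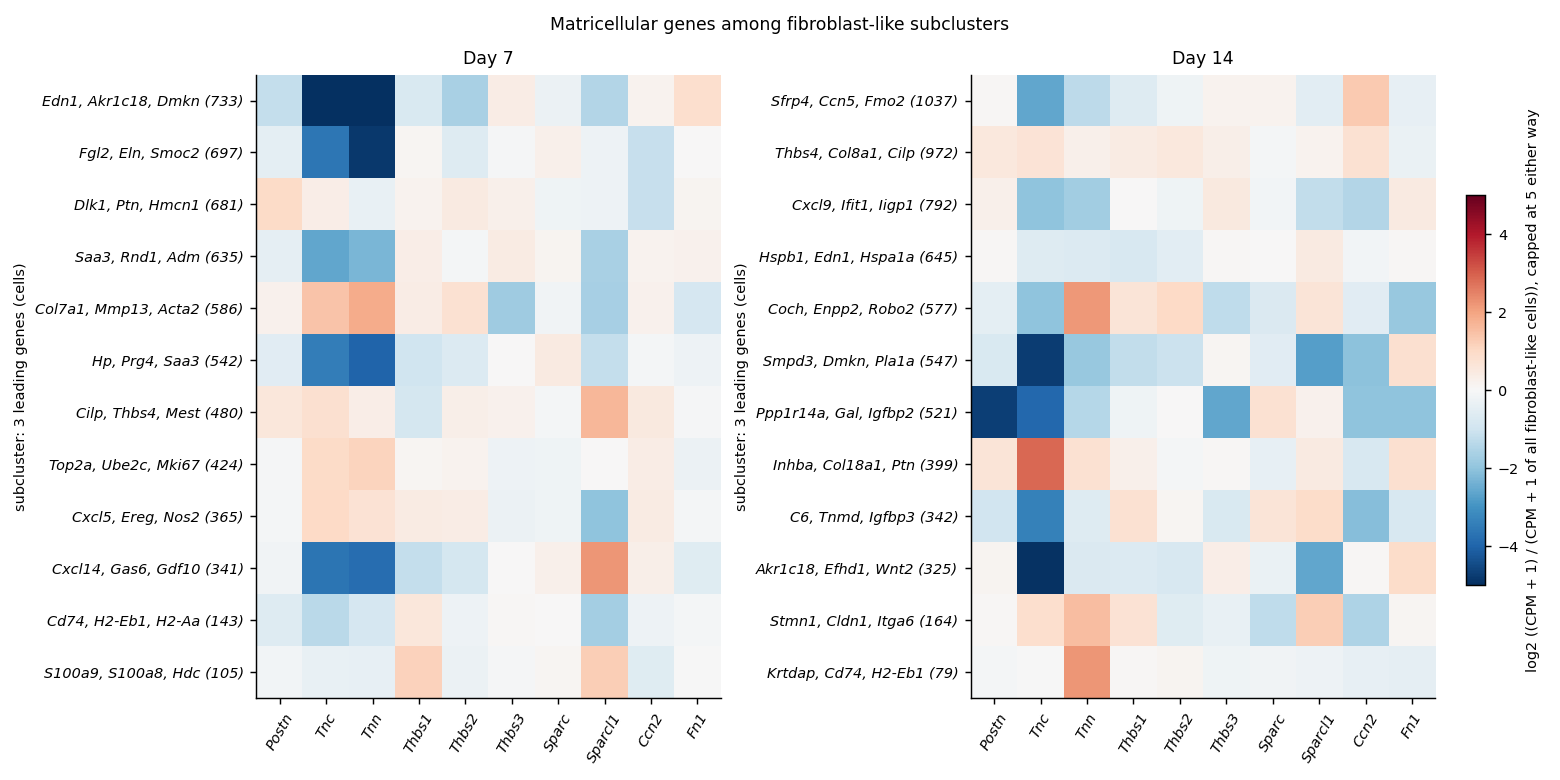
Heat maps of each gene (columns) in the subclusters of fibroblast-like cells (rows, named by 3 leading genes, with cell numbers) on Days 7 and 14; color is the log2 ratio of CPM + 1 to that of all fibroblast-like cells of the day, capped at 5 either way. On Day 14 *Tnc* reaches 1226 CPM in the *Inhba* and *Col18a1* subcluster while the whole class stands at 167 CPM, and on Day 7 *Tnc* and *Tnn* are highest, and *Thbs3* lowest, in the *Col7a1* and *Acta2* subcluster.

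Among the named classes, *Tnn* was highest in the *Bmp4*-positive mesenchymal-like class, with 448 CPM (331 to 594) on Day 7 from 48 UMIs and 219 CPM (199 to 240) on Day 14. That class held 51.1% of the Day 14 *Tnn* UMIs, fibroblast-like cells 20.8% and unnamed cells 25.3%. No *Tnn* UMI was counted on Day 14 in the 426 pericyte-like cells (at most 2.14 CPM). Pericyte-like cells had 147 CPM of *Tnc* (130 to 167) on Day 14, an interval that overlaps that of fibroblast-like cells. In endothelial-like cells *Tnc* was at 148 CPM (131 to 168) on Day 7 and 27.9 (19.6 to 38.5) on Day 14. The drop of *Tnc* was thus also found in endothelial-like cells, and in pericyte-like cells it went from 326 to 147 CPM.

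Tenascin levels in Day 7 fibroblast-like cells went with the level of *Acta2*, which encodes the smooth muscle actin of contractile myofibroblasts. After thinning to 2000 UMIs, 4755 cells had no *Acta2* UMI, 761 had 1 to 4 and 189 had 5 or more, which are ranges of a level and not cell types. *Tnc* was at 485, 1607 and 2518 CPM (2457 to 2581) in these ranges, and *Tnn* at 58.3, 265 and 593 CPM (563 to 623). *Thbs2* also increased along them, from 580 to 906 and 1018 CPM. *Thbs3* decreased, from 210 to 133 and 49.1 CPM (40.8 to 58.6), and so did *Fn1*, from 2120 to 1525 and 1234 CPM. *Postn* (4791, 5805 and 5424 CPM) and *Sparc* (22375, 19452 and 18188 CPM) varied least. *Ccn2* went from 31.9 to 44.9 and 89.4 CPM, and *Thbs1* from 233 to 263 and 379 CPM. High levels were not the bulk of the transcripts. The cells with no *Acta2* UMI held 24685 *Tnc* UMIs before thinning, against 15284 in those with 1 to 4 and 6312 in those with 5 or more. *Mki67*, a proliferation marker, was at 38.9, 105 and 122 CPM and the median UMI count before thinning was 10261, 11890 and 12307, so cycling and depth moved with the ranges; their part in these differences was not tested. On Day 3, *Tnc* was at 658 CPM (646 to 670) in cells with no *Acta2* UMI and 703 (672 to 734) with 1 to 4, *Tnn* at 42 and 61.4 CPM, and *Thbs3* at 114 and 122 CPM with overlapping intervals, so *Tnc* differed far less between these ranges than on Day 7. On Day 14 *Tnc* was at 154 and 622 CPM, *Tnn* at 2.29 and 16 CPM and *Thbs3* at 168 and 142 CPM in the same ranges.

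**Figure D5:**
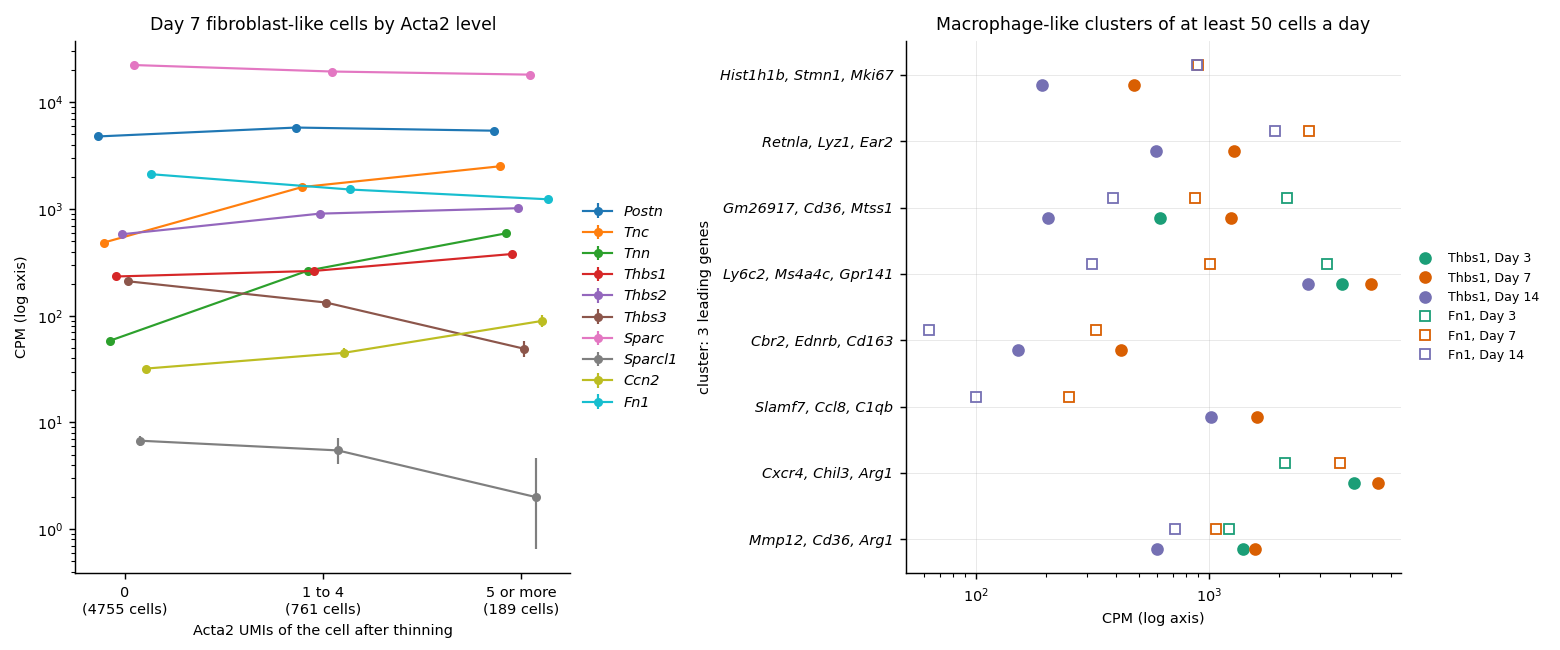
Left, CPM of the genes (log axis, exact 95% intervals) in Day 7 fibroblast-like cells by *Acta2* UMIs after thinning to 2000 UMIs; right, *Thbs1* and *Fn1* CPM (log axis) in macrophage-like clusters on days with at least 50 cells. *Tnc* goes from 485 to 2518 CPM along the *Acta2* ranges while *Thbs3* goes from 210 to 49.1 CPM, and *Thbs1* reaches 4961 CPM on Day 7 in the *Ly6c2* cluster.

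Thrombospondin-1, which activates latent TGF-β and binds CD47 and CD36, was mainly a transcript of myeloid cells on Days 3 and 7. *Thbs1* measured 12566 CPM (12363 to 12772) in neutrophil-like cells on Day 3 and 8973 (8808 to 9140) on Day 7. In macrophage-like cells it measured 4006 (3970 to 4042), 1825 (1809 to 1841) and 748 (732 to 763) CPM on Days 3, 7 and 14. In fibroblast-like cells it was at 425, 244 and 274 CPM. The order on Days 3 and 7 was thus neutrophil-like, macrophage-like, then the rest, with intervals that did not overlap. The Day 14 neutrophil-like value rests on 21 cells and is not ranked.

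Shares of cells followed the same order. Thinned to 500 UMIs, 84.5% and 84.5% of neutrophil-like cells on Days 3 and 7 had a *Thbs1* UMI, as did 63.8%, 38.5% and 20.1% of macrophage-like cells on the 3 days. Macrophage-like cells held 66.5%, 62.6% and 29.3% of the *Thbs1* UMIs, and fibroblast-like cells 11.5%, 19.4% and 59.1%. On Day 14 pericyte-like cells had the highest level of the ranked classes, 905 CPM (860 to 951). On Days 7 and 14 lymphocyte-like cells had 199 (165 to 237) and 63.7 CPM (45.5 to 86.7) of *Thbs1*. These were 81.5% and 23.3% of the fibroblast-like level, where the background genes were at 3.5% and 4.63%, and the part of RNA from other cells in the fibroblast-like *Thbs1* was not tested. The fibroblast-like subcluster with the most *Thbs1* on Day 7 (541 CPM, 105 cells) was led by *S100a9* and *S100a8*, which mark neutrophils.

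Platelets store thrombospondin-1, so platelet genes were set beside these values. *Gp9*, *Gp1bb*, *Gp6*, *Itga2b* and *Treml1* had 0 UMIs in the 867 neutrophil-like cells of Day 3, each at most 3.19 CPM. *Pf4* was at 58 CPM there and *Ppbp* at 0.87 CPM from 1 UMI. Macrophage-like cells had 2456 to 2558 CPM of *Pf4*, while *Ppbp* was at 106, 34.5 and 5.29 CPM over Days 3, 7 and 14. In macrophage-like cells *Gp9* and *Gp6* were at 0 UMIs on every day, *Gp1bb* had 0, 1 and 2 UMIs on Days 3, 7 and 14, *Itga2b* 6, 24 and 10, and *Treml1* 4, 10 and 0.

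Within macrophage-like cells, the direction of *Thbs1* from Day 3 to Day 7 differed between the class and its clusters. The class-wide log2 ratios were -1.13 (-1.15 to -1.12) for Day 7 over Day 3 and -1.29 (-1.32 to -1.26) for Day 14 over Day 7. A cluster led by *Cxcr4* and *Chil3*, with 2395 of the 2712 Day 3 cells, had 4185 CPM (4147 to 4222) on Day 3 and 5322 (4979 to 5682) in 51 cells on Day 7. In the cluster led by *Ly6c2*, whose leading genes include *Thbs1*, the level was 3722 (3378 to 4091), 4961 (4892 to 5032) and 2652 (2518 to 2792) CPM on Days 3, 7 and 14. The cluster led by *Mmp12* and *Cd36*, with 98 and 4025 cells on the first 2 days, had 1401 CPM (1286 to 1524), 1581 (1559 to 1603) and 597 (530 to 670). A cluster of low UMI counts led by *Gm26917* went from 615 CPM (462 to 802) to 1245 (1168 to 1325) and then 204. Each of these 4 clusters, the ones with at least 50 cells on both days, thus had more *Thbs1* on Day 7 than on Day 3. From Day 7 to Day 14 all 7 clusters compared had less, down to 151 CPM in the one led by *Cbr2* and *Cd163*. Different clusters held most macrophage-like cells on different days.

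Thrombospondin-2, which lowers matrix metalloproteinase activity and angiogenesis, was a fibroblast-like transcript. *Thbs2* measured 341 CPM (333 to 349), 647 (640 to 653) and 301 (297 to 305) on Days 3, 7 and 14, with log2 ratios of 0.92 (0.89 to 0.96) and -1.10 (-1.13 to -1.08). The second lay just past 2-fold and stayed there in 6 of 15 alternative settings, over which it ranged from -1.12 to -0.65. The next ranked level was that of pericyte-like cells, 177 CPM (154 to 202) on Day 7 and 95.2 (81.2 to 111) on Day 14. The unnamed *Igfbp2*, *Prss35* and *Crabp1* cells of Day 14, which also carried *Tnn*, had 2488 CPM (2390 to 2588) of *Thbs2*. On Day 7 *Thbs2* was highest, at 1102 CPM, in the same *Col7a1* and *Acta2* subcluster as both tenascins.

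*Thbs3*, a pentameric thrombospondin, stayed within 2-fold over the 3 days in fibroblast-like cells. It measured 115 CPM (111 to 120), 192 (189 to 196) and 167 (164 to 170), and no other named class with 50 cells exceeded 38.6 CPM. Its log2 ratios were 0.74 and -0.21. The level of *Thbs3* in cells rich in *Tnn* differed between groups of cells. It was 55.7 CPM, the lowest of the Day 7 subclusters, in the *Col7a1* and *Acta2* cells with the most *Tnn* of that day, and 24.3 CPM (15.6 to 36.1) in the unnamed *Prss35* and *Crabp1* cells of Day 14. It was 144 CPM (119 to 172) in the Day 14 subcluster with the most *Tnn*, the 79 cells led by *Krtdap* and *Cd74*. The *Tnn* level of these 79 cells rests on 13 UMIs, and their leading genes are those of keratinocytes and antigen-presenting cells. In the 577 cells led by *Coch* and *Enpp2*, whose *Tnn* level did not differ from theirs beyond the intervals, *Thbs3* was at 68.3 CPM (60.5 to 76.9). These 577 cells held 33.5% of the *Tnn* UMIs of Day 14 fibroblast-like cells. On Day 3 the subcluster led by *Cxcl9* and *Rsad2* was highest for both genes (74.9 CPM of *Tnn* and 144 CPM of *Thbs3*). The highest Day 7 value was 257 CPM, in a subcluster led by *Saa3* and *Rnd1*.

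SPARC, a collagen- and calcium-binding protein needed for collagen fibril assembly, differed from the tenascins in that it was higher on each later day. *Sparc* measured 13310 CPM (13259 to 13361), 21763 (21726 to 21799) and 31640 (31597 to 31682) in fibroblast-like cells, with log2 ratios of 0.71 and 0.54. Within clusters the second ratio was 0.40 in the one led by *Mgp* and *Cilp* and 0.02 in the one led by *Cxcl9* and *Akr1c18*, and the first was 0.49 in the *Cxcl5* and *Saa3* cluster. It was detected in at least 99.97% of the thinned cells on each day. Pericyte-like cells had 7610 and 7898 CPM on Days 7 and 14, and endothelial-like cells 4192 and 3669 CPM. The *Bmp4*-positive class, at 1352 CPM on Day 14, was at 4.27% of the fibroblast-like level, where the 5 background genes had a median of 4.74% but ranged from 2.59% to 159.8%, so that median is a poor reference in this class. *Sparc* was at 25% of the fibroblast-like level in pericyte-like and 11.6% in endothelial-like cells, where the background genes were at 4.28% and 4.39%. In the *Ppp1r14a* and *Gal* subcluster of Day 14 it was at 53839 CPM, where *Postn* was at 134, *Thbs3* at 26.5 and *Fn1* at 431 CPM, each the lowest of the 12 subclusters.

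*Sparcl1*, encoding the anti-adhesive SPARC-like protein also called hevin, was a transcript of vessel-associated cells. It measured 951 CPM (896 to 1008) in pericyte-like cells on Day 7 and 1890 (1826 to 1956) on Day 14, and 502 (469 to 537) and 581 (540 to 623) in endothelial-like cells. In fibroblast-like cells it was at 0.35 CPM (0.14 to 0.73), 6.37 (5.76 to 7.03) and 22.2 (21.1 to 23.3), a log2 ratio of 1.80 (1.64 to 1.96) from Day 7 to Day 14. Pericyte-like cells held 45.2%, 45.7% and 55% of its UMIs on Days 3, 7 and 14, and fibroblast-like cells 7.53%, 16.2% and 25.8%. The Day 3 pericyte-like share rests on 42 of 93 *Sparcl1* UMIs, from 10 cells. Within the *Mgp* and *Cilp* cluster the ratio was 0.01 (-0.52 to 0.60) and within the *Cxcl9* and *Akr1c18* cluster -0.19 (-0.77 to 0.42), so neither interval lay above 0. The highest Day 7 level among fibroblast-like subclusters, 33.1 CPM, was in cells led by *Cxcl14* and *Gas6*.

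*Ccn2*, encoding connective tissue growth factor and a common readout of TGF-β and YAP signalling, was the only member more than 2-fold lower in fibroblast-like cells on Day 7 than on both other days. It measured 93.5 CPM (89.3 to 97.8), 36.2 (34.8 to 37.8) and 109 (106 to 111), with log2 ratios of -1.37 (-1.46 to -1.28) and 1.59 (1.52 to 1.65). After thinning to 2000 UMIs, 9.37%, 4.59% and 12.4% of the cells had a UMI. Within the *Cxcl5* and *Saa3* cluster the first ratio was -0.86 (-1.05 to -0.68). The second was 0.38 (0.15 to 0.61) in the *Mgp* and *Cilp* cluster and 2.40 (1.99 to 2.85) in the *Cxcl9* and *Akr1c18* cluster, so the class-wide difference was not shared evenly. In pericyte-like cells *Ccn2* went the opposite way, from 150 CPM (129 to 174) on Day 7 to 20.9 (14.6 to 28.9) on Day 14.

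The order of classes for *Ccn2* changed with it. On Day 7 pericyte-like cells were highest, followed by endothelial-like cells with 62.4 CPM (51.2 to 75.3) and fibroblast-like cells. On Day 14 fibroblast-like cells were highest, followed by endothelial-like (43 CPM, 32.6 to 55.7) and pericyte-like cells. On Day 3 the 11 endothelial-like and 10 pericyte-like cells had 1253 and 668 CPM, too few cells to rank. *Ccn2* is itself a rapidly induced gene, so 7 immediate-early and heat-shock genes, which respond to tissue dissociation, were summed. Their sum was 6523, 6753 and 8050 CPM in fibroblast-like cells on Days 3, 7 and 14. In pericyte-like cells it was 6811 CPM on Day 7 and 9102 on Day 14, while *Ccn2* was lower on Day 14. The immediate-early part of that sum went from 5660 to 8474 CPM, and the heat-shock part from 1151 to 628 CPM. The Day 14 subcluster with the most *Ccn2* (270 CPM, 1037 cells, led by *Sfrp4* and *Ccn5*) had a sum of 11288 CPM, and the subcluster with the largest sum (15098 CPM) had 97.8 CPM of *Ccn2*; the part of this response in *Ccn2* was not tested.

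Fibronectin, the adhesive glycoprotein of the provisional matrix on which migrating cells travel, was counted mostly in macrophage-like cells on Day 3 and mostly in fibroblast-like cells on Days 7 and 14. *Fn1* measured 2091 CPM (2065 to 2117), 913 (902 to 925) and 573 (560 to 587) in macrophage-like cells and 1002 (988 to 1016), 1994 (1983 to 2005) and 1732 (1722 to 1742) in fibroblast-like cells on Days 3, 7 and 14. The 2 classes thus changed places as the highest between Day 3 and Day 7. Macrophage-like cells held 55%, 16% and 5.51% of the *Fn1* UMIs, and fibroblast-like cells 43.1%, 80.9% and 91.6%. The log2 ratio of Day 7 over Day 3 was 0.99 in fibroblast-like and -1.19 (-1.22 to -1.17) in macrophage-like cells. The former lay just short of 2-fold and passed it in 5 of 15 alternative settings, up to 1.21.

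Among macrophage-like clusters *Fn1* was highest in the *Ly6c2* cluster on Day 3, 3194 CPM (2876 to 3537), and in the *Cxcr4* and *Chil3* cluster on Day 7, 3639 CPM (3356 to 3939) from 51 cells. It was lowest in the *Slamf7* and *Ccl8* cluster on Day 7, 251 CPM, and in the *Cbr2* and *Cd163* cluster on Day 14, 62.7 CPM. A cluster led by *Retnla* and *Lyz1* had 2687 CPM (2595 to 2781) on Day 7 and 1922 (1870 to 1975) on Day 14. In that cluster *Fn1* stood above the fibroblast-like level on both days. Among fibroblast-like subclusters *Fn1* reached 3582 CPM on Day 7 in the *Edn1* and *Akr1c18* cells and 3307 CPM on Day 14 in cells led by *Akr1c18* and *Efhd1*, the subclusters where *Tnc* was lowest on each day (18 and 4.42 CPM). High *Fn1* was not limited to cells with little *Tnc*: the Day 14 subcluster with the most *Tnc*, led by *Inhba* and *Col18a1*, had 3031 CPM (2982 to 3081) of *Fn1*.

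In pericyte-like cells 4 of 9 members tested were at least 2-fold lower on Day 14 than on Day 7 and 0 were higher, where 13.20% of 7972 genes were lower and 7.19% higher. These were *Ccn2* (-2.84, -3.40 to -2.32), *Fn1* (-1.79), *Tnc* (-1.15) and *Postn*, which was just past the threshold (2.01-fold lower). *Ccn2* stayed past 2-fold in 15 of 15 alternative settings and *Fn1* in 14, coming to -0.62 with called doublets kept. *Postn* stayed past it in 10 of 15 (to -0.58) and *Tnc* in 9 (to -0.41), so these calls depend on the processing. The 3 alternatives for which cells count as fibroblast-like leave all other classes unchanged. In those classes they only repeat another setting, so their agreement was fixed in advance. In endothelial-like cells 3 of 8 were lower and 0 higher, where 9.28% of 8017 genes were lower and 5.49% higher. The 3 were *Tnc* (-2.41), *Fn1* (-1.86) and *Thbs1* (-1.36). The median log2 ratio of the members was -0.89 in pericyte-like and -0.37 in endothelial-like cells, where that of all genes was -0.19 and -0.16. These classes had 184 to 426 cells a day. In the *Bmp4*-positive class, with 62 cells on Day 7, the ratios went both ways, from -1.87 (-2.45 to -1.25) for *Thbs1* to 1.26 (-0.12 to 3.15) for *Sparcl1*.

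In macrophage-like cells 4 of 6 members were higher on Day 7 than on Day 3 and 2 were lower, where 2.30% of 7253 genes were higher and 5.32% lower. The higher ones were *Postn* (log2 ratio 4.43), *Thbs2* (3.06), *Sparc* (3.05) and *Tnc* (2.18), and the lower ones *Thbs1* and *Fn1*. *Thbs1* stayed past 2-fold in 12 of 15 alternative settings (to -0.87) and *Fn1* in 14 (to -0.93). As in pericyte-like cells, 3 of these settings only repeat another one. The background of fibroblast genes in these cells moved the same way, from 0.66% to 3.52% of the fibroblast-like level, and the 4 higher members stood at 2.48% to 4.22% of theirs on Day 7. From Day 7 to Day 14, 0 of 6 were higher and 2 lower, *Tnc* (-1.27) and *Thbs1* (-1.29), where 2.46% of 7148 genes were higher and 3.23% lower.

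Relatives of the members in fibroblast-like cells were given by a list of 17 genes of the same families. From Day 3 to Day 7, 5 of the 10 tested were at least 2-fold higher and 0 lower (4.44% and 8.96% of all genes), with a median of 0.60. They were *Smoc2* (21.3 to 128 CPM), *Tnxb*, a tenascin of mature dermis (122 to 409 CPM), *Spp1* (osteopontin, 95.4 to 291 CPM), *Ccn3* (77.9 to 184 CPM) and *Thbs4* (11.4 to 25.3 CPM). From Day 7 to Day 14, *Smoc2* (to 399 CPM) and *Thbs4* (to 89.3 CPM) were again higher, and *Spp1* (to 7.12 CPM) and *Ccn4* (131 to 63.5 CPM) were lower, of 10 tested (2.25% and 3.69% of all genes). *Spp1* thus had its highest level on Day 7 and its lowest on Day 14, as had *Tnn*, *Thbs2* and, with an order of Days 3 and 7 that is not settled, *Tnc*. *Spp1* was below 10 CPM on Day 14 and passed the filter only through Day 7, which fixed its direction between these days.

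Of 16 genes for integrin subunits and other receptors of these proteins, 10 were tested from Day 3 to Day 7. None was higher and 1 was lower (4.44% and 8.96% of all genes), *Sdc4*, which encodes the fibronectin coreceptor syndecan-4 (501 to 192 CPM). From Day 7 to Day 14, 0 of 9 were higher and 0 lower, where 2.25% and 3.69% of all genes were. Of 5 contractile genes, 4 were tested, of which 3 were higher on Day 7 (4.44% of all genes) and the same 3 lower on Day 14 (3.69%). *Acta2* was at 122, 284 and 18.6 CPM, *Tagln* at 25.8, 106 and 17.6 CPM and *Myl9* at 20.4, 41.6 and 17.2 CPM. These contractile genes had their highest level on Day 7, as had *Postn*, *Tnn*, *Thbs2*, *Thbs3*, *Fn1* and, with an order of Days 3 and 7 that is not settled, *Tnc*.

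The pattern of each gene over 20 sums of a class on a day was compared with that of 6939 genes by Pearson correlation of log2(CPM + 1). The sums share libraries and depth, so the values describe likeness only. *Postn* and *Thbs2* were both most like *Col5a1* (r = 0.97 and 0.98), a chain of type V collagen. *Tnc* was most like *Bmp1* (0.96), *Thbs3* like *Mmp23* (0.98), *Sparc* like *Fbn1*, which encodes fibrillin-1 (0.97), and *Ccn2* like *Tspan6* (0.94). *Sparcl1* was most like *Nes* (0.95), which encodes the intermediate filament nestin, and *Thbs1* like *Rbms1* (0.92). *Tnn* was most like *Crabp1* (0.91), which was also 1 of the markers used to name the *Bmp4*-positive class, and *Fn1* like *Cfb* (0.90). Among the members themselves r ranged from -0.35 for *Postn* and *Thbs1* to 0.97 for *Postn* and *Thbs2*.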

How the data were processed

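The authors aligned and counted the reads with Cell Ranger 6.0.0 on mm10, per the submitters' processing notes, and deposited filtered matrices of UMI counts, 1 for each of 3 days; the annotation release is not given in the sources used here. Of 32285 Ensembl IDs 32158 matched a symbol. Cells with fewer than 200 genes or 500 UMIs, or with over 10% of UMIs from mitochondrial genes, were dropped, and doublets were removed by their share of simulated doublet neighbours (92, 1978 and 962 cells). Cells were clustered on 2000 variable genes, 30 principal components and 15 neighbours (Leiden, resolution 1, and 0.6 for subclusters). The 3 libraries were clustered together without alignment to each other, whereas the study aligned them with Seurat. Differences between libraries were thus left in the clusters. Clustering left out 145 genes: the members, their related, receptor and contractile lists, *Gm42418* and mitochondrial and ribosomal genes. Clusters were named from at least 3 markers of a class, unless another class had more markers among their 10 leading genes; T, B and NK markers were joined as lymphocyte-like, and clusters led by *Siglech* and by *Igfbp2* and *Crabp1*, as well as one of low UMI counts and one not reported here, stayed unnamed. A *Cd207*-led cluster was also left unnamed, and this exception and the joining of lymphocyte markers were set after the clusters had been seen.

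UMIs were summed per class and day and divided by the class total (CPM). Poisson, ratio and Clopper-Pearson intervals are exact at 95% and cover counting error only. Ratios were compared for genes with a mean of at least 10 CPM and at least 1 UMI in both libraries, in classes of at least 50 cells on both days. Cells were thinned to 2000 or 500 UMIs to compare shares. With 1 library a day no test was possible; nothing ties cells to single wounds. The 2-fold call and the exact ratio interval were tested on simulated Poisson counts. Clustering, doublet removal, class naming and thinning were not tested in this way. Python 3.11.15, numpy 2.4.6, scipy 1.17.1, igraph 0.11.9, leidenalg 0.10.2 and matplotlib 3.10.9 were used. The named genes are the 10 members, listed relatives past 2-fold and the most similar gene by correlation. The members and lists were chosen with earlier results of these data known; the platelet and dissociation gene lists and 3 alternatives for which cells count as fibroblast-like were added after the data had been seen. Coordinates of genes are from GENCODE on GRCm38.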

Additional observations from a re-analysis of the deposited data

Results flagged for a closer look

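Differences between classes in how a gene moved between the same 2 days were large for *Ccn2* and *Fn1*. The log2 ratio of *Ccn2* for Day 14 over Day 7 was 4.43 larger in fibroblast-like than in pericyte-like cells, being higher in the former and lower in the latter. The log2 ratio of *Fn1* for Day 7 over Day 3 was 3.60 larger in neutrophil-like than in macrophage-like cells. *Fn1* in neutrophil-like cells went from 45 CPM to 238 CPM while the median of 5 fibroblast genes in those cells went from 1.3% to 9.82% of the fibroblast-like level; its part in the difference was not tested. With 1 library a day, neither difference was tested.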

How the results depend on the processing

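With 1 library a day, leaving out a library was not possible, and no paired analysis was possible because no group has a second sample. The 48 ratios of members between days were recomputed under 15 alternatives of filtering, clustering, doublets and scaling: 713 of 720 values kept their direction, and 317 of 345 values of called ratios stayed at least 2-fold, in fibroblast-like cells 108 of 120. Outside fibroblast-like cells, the 3 alternatives for which cells count as fibroblast-like only repeat another setting. The totals and the counts for other classes therefore include agreements fixed in advance. One called ratio reversed: *Tnn* for Day 7 over Day 3 was -0.12 at Leiden resolution 0.5, where 3735 Day 7 cells were fibroblast-like and 2613 unnamed, and 1.24 with the unnamed fibroblast-marker clusters added at that resolution, an alternative chosen after seeing the data. *Tnc* for Day 7 over Day 3, not called at 0.16, was -1.15 at resolution 0.5 and -0.51 with each library clustered alone. It stayed within 2-fold with the unnamed fibroblast-marker clusters added at resolution 0.5. The other losses in fibroblast-like cells were *Tnn* for Day 7 over Day 3 with each library clustered alone (0.43), *Tnc* for Day 14 over Day 7 at resolution 0.5 (-0.88) and *Thbs2* for Day 14 over Day 7 (6 of 15 kept). The *Tnc* call was kept with the unnamed fibroblast-marker clusters added at that resolution. At resolution 0.5 the members at least 2-fold lower were 2 for Day 7 over Day 3 (10.7% of all genes) and 1 for Day 14 over Day 7 (3.19%). In pericyte-like cells *Postn* kept its call in 10 of 15 alternatives, *Tnc* in 9 and *Fn1* in 14. In macrophage-like cells for Day 7 over Day 3, *Thbs1* kept it in 12 and *Fn1* in 14. The members at least 2-fold higher on Day 7 than on Day 3 went from 2 to 4 when scaled without the 50 most abundant genes or by median-of-ratios size factors, as *Thbs2* and *Fn1* passed, where 7.12% and 6.78% of all genes were higher in place of 4.44%. It went to 6 at a 1.5-fold threshold, where 2 were lower in place of 1, and 9.89% of all genes were higher and 23.8% lower. Without the filter on low values, the share of all genes called in fibroblast-like cells was 12.1% higher and 14.2% lower for Day 7 over Day 3, and 10.1% higher and 12.7% lower for Day 14 over Day 7. *Sparcl1* had 7 UMIs in fibroblast-like cells on Day 3, a low level (0.35 CPM) in cells of high depth (median 44800.5 UMIs). Its ratio to Day 7 was left out by the filter on low values. The number of cells limited every class with few cells on Day 3.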
